A study of Homo sapiens with 17 samples.

Results

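The MYC, MAX and MXD network comprises the transcription factor genes MYC, MAX, MXD1, MXD3, MXD4, MXI1, MNT and MLX. Every probe annotated to these 8 genes was taken, whatever its value, which gave 16 of the 47323 probes, and 8 of 20046 gene symbols, on the Illumina HumanHT-12 V4.0 bead array. A filter on dim probes, set at a mean log2 level of 6.16, passed 14 of the 16 and 28394 of all probes. The other pair, ILMN_1663497 and ILMN_1793915, both read MXI1. Total RNA came from 6 established human acute myeloid leukemia (AML) cell lines, each left untreated or cultured for 48 h with D9, an analog of 3-deazaneplanocin A (DZNep), an inhibitor of S-adenosylhomocysteine hydrolase that lowers histone methylation. The series' design text calls MOLM-14, TF-1 and MV-4-11 sensitive and KG-1a, THP-1 and Mono-Mac-1 resistant to D9. Per line there was a single array without D9 and a single array at 1 µM, and every line except MV-4-11 had a further array at 5 µM, which made 17 arrays. TF-1 was grown with the cytokine IL-3, and no array was repeated within a line and dose, so p-values measure only the spread between lines.

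MYC binds DNA as a heterodimer with MAX, mainly at the E-box CACGTG, and raises transcription of genes for growth and division. The MXD proteins, MXI1 and MNT compete for MAX, bind the same sites and repress through the SIN3 histone deacetylase complex. MLX is a MAX-like partner that pairs with MondoA and ChREBP, the products of MLXIP and MLXIPL, and also with MXD1, MXD4 and MNT. In normal myeloid cells MYC declines and MXD1 appears as the cells mature, while MYC is often held high in AML.

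Because the network proteins read the E-box, the promoters of the genes themselves were searched for CACGTG, which is the same on both strands. The RefSeq promoter table (GRCh38.p14) covers 250 bases before and 50 after each annotated start. MYC was left out of the search. The 7 members searched had 10 entries, and 3 entries held the motif, those of MXD4, MNT and MLX, against 7.26% of all 35116 promoters in the table. No entry of MAX, MXD1, MXD3 or MXI1 held these letters in this window. The stretches around the motif are given 5′ to 3′ on the strand of the gene with CACGTG in capitals, so that they can be set beside the values of these 3 genes.
MXD4: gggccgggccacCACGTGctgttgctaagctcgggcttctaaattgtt
MNT: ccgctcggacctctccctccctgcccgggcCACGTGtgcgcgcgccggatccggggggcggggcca
MLX: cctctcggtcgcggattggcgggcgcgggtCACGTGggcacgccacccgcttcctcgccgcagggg
They lie at chr4:2262312-2262359 on the minus strand, chr17:2401218-2401283 on the minus strand and chr17:42567020-42567085 on the plus strand. The motif begins at position -238 from the start of MXD4, -193 from that of MNT and -50 from that of MLX. A match is a description of sequence, and binding was not measured here.

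Raw array medians ran from 53.9 to 67.4 intensity units. Arrays of a line had correlations of at least 0.978 with each other, against at most 0.956 between lines. Among 9 myeloid marker genes with a probe, 7 to 9 lay above the filter level in each untreated line. Their summed log2 level ran from 63.6 in KG-1a to 80.4 in MOLM-14. The filter level was also passed by 1 to 5 of 6 lymphoid and 2 to 6 of 7 epithelial or stromal marker genes. Passing it therefore does not by itself mark a cell type. The stem cell marker CD34 was at 13.20 in KG-1a and 11.63 in TF-1, against 6.17 to 6.44 in the other lines. KG-1a stood apart, with the T cell gene CD3D at 12.73 and the myeloid factor SPI1 at 6.40, near the filter level. TF-1 alone had the fetal hemoglobin gene HBG1 well above that level, at 14.59. All 5 erythroid marker genes lay above it in TF-1, with a summed log2 level of 57.2 against 30.4 to 30.7 in the other lines. Results for the network are therefore also given without KG-1a where they moved. In bulk RNA, fewer cells carrying a transcript and less transcript per cell cannot be told apart.

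**Figure D1:**
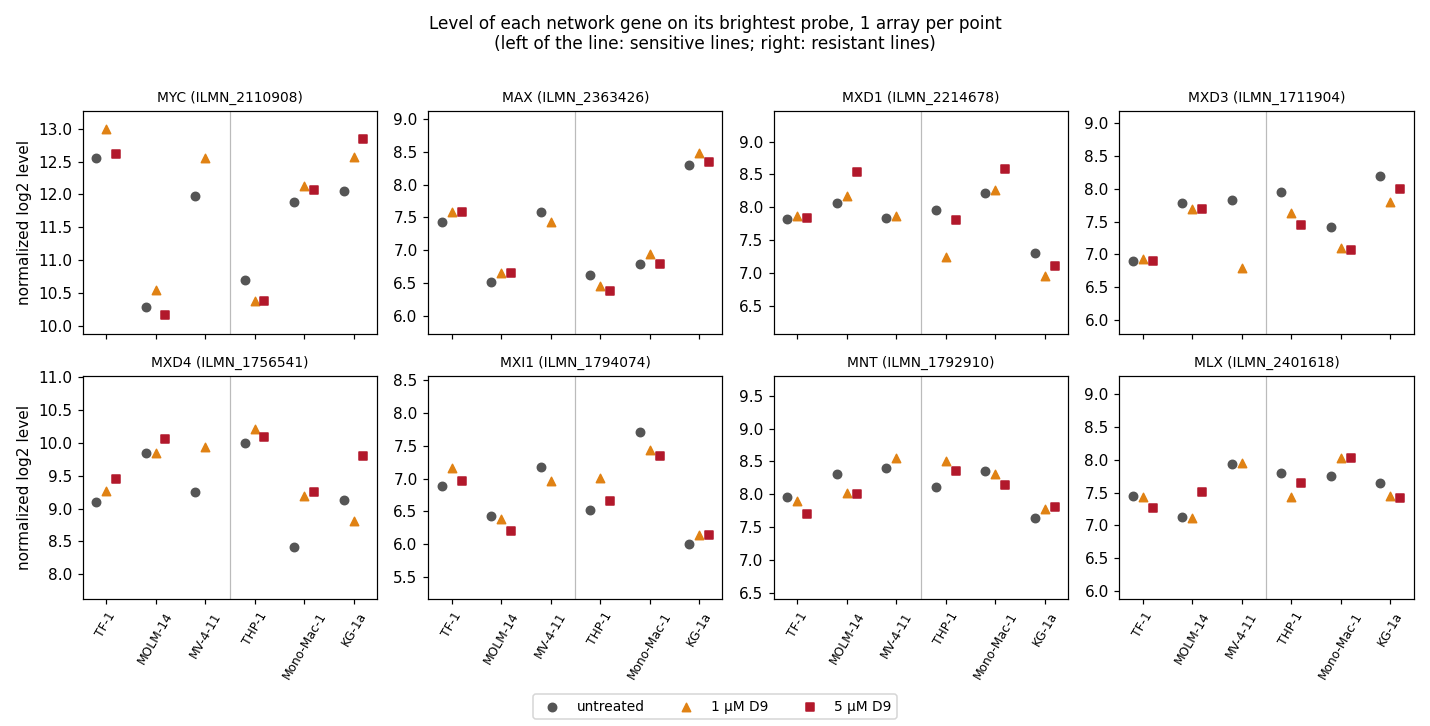
Normalized log2 level (vertical axis, each panel spanning the same 3.4 log2 units) of each network gene on its brightest probe in 6 cell lines (horizontal axis). Each point is 1 array: circles untreated, triangles 1 µM and squares 5 µM D9. MYC is lowest in MOLM-14 and THP-1 at every dose, and the sensitive and resistant lines overlap in all 8 panels.

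MYC, the activating member of the network, was bright in every line. On its brighter probe, ILMN_2110908, the untreated log2 level was 12.56 for TF-1, 12.05 for KG-1a, 11.98 for MV-4-11, 11.89 for Mono-Mac-1, 10.69 for THP-1 and 10.29 for MOLM-14. The last 2 lines stood below the other 4, and each class held 1 of them. TF-1 exceeded MOLM-14 by 4.82-fold on this probe and by 7.56-fold on the other MYC probe, ILMN_1680618, where the order of the lines was TF-1 (12.81), KG-1a (12.35), Mono-Mac-1 (11.98), MV-4-11 (11.98), THP-1 (10.27) and MOLM-14 (9.89). With 1 untreated array per line, neighbours in these orders have no spread against which to set their difference. The sensitive mean of 11.61 and the resistant mean of 11.54 differed by 0.06 ± 0.69 (SE, limma adjusted p = 1.000).

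After 1 µM D9 the brighter MYC probe differed from the untreated array of its line by 0.43 for TF-1, 0.26 for MOLM-14, 0.58 for MV-4-11, -0.32 for THP-1, 0.24 for Mono-Mac-1 and 0.53 for KG-1a. At 5 µM the differences were 0.06 for TF-1, -0.12 for MOLM-14, -0.32 for THP-1, 0.19 for Mono-Mac-1 and 0.79 for KG-1a. MYC thus read higher with D9 in 5 of 6 lines when the doses were averaged, with THP-1 as the exception, and KG-1a at 5 µM was the single pair past 1.5-fold on this probe. The mean over the 6 lines was 0.24 ± 0.13 (SE, adjusted p = 0.360), so the gene did not pass the test. It was 0.12 without KG-1a and 0.37 without THP-1.

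The other MYC probe gave a mean of 0.20 ± 0.06 (SE, adjusted p = 0.120), above 0 in 6 of 6 lines and between 0.00 in TF-1 and 0.35 in KG-1a. The probes followed each other closely over the 17 levels (r = 0.976) but not over the 11 differences from untreated (r = 0.24). Their widest gap was in THP-1 at 5 µM, where ILMN_2110908 read -0.32 and ILMN_1680618 read 0.53. The direction of MYC in THP-1 therefore depends on the probe.

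MAX, the obligate partner of MYC and a partner of the MXD proteins, was far more even between doses than between lines. The untreated level on its brightest probe, ILMN_2363426, was 8.30 for KG-1a, 7.58 for MV-4-11, 7.44 for TF-1, 6.80 for Mono-Mac-1, 6.62 for THP-1 and 6.52 for MOLM-14, a 3.43-fold range. Differences from untreated on this probe lay between -0.25 in THP-1 at 5 µM and 0.18 in KG-1a at 1 µM, and their mean was 0.02 ± 0.07 (SE, adjusted p = 0.938). The other probes of MAX did not share a direction. ILMN_1706546 read 0.23 ± 0.07 (SE, adjusted p = 0.119) and lay above 0 in 6 of 6 lines, from 0.10 to 0.39 with KG-1a the highest. ILMN_1802457 read -0.13 ± 0.09 (SE, adjusted p = 0.510), with -0.55 in MV-4-11, and ILMN_1704236 read 0.05 ± 0.05 (SE, adjusted p = 0.705). The levels of the 3 dimmer probes had correlations of 0.436 to 0.944 with the brightest over 17 arrays.

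**Figure D2:**
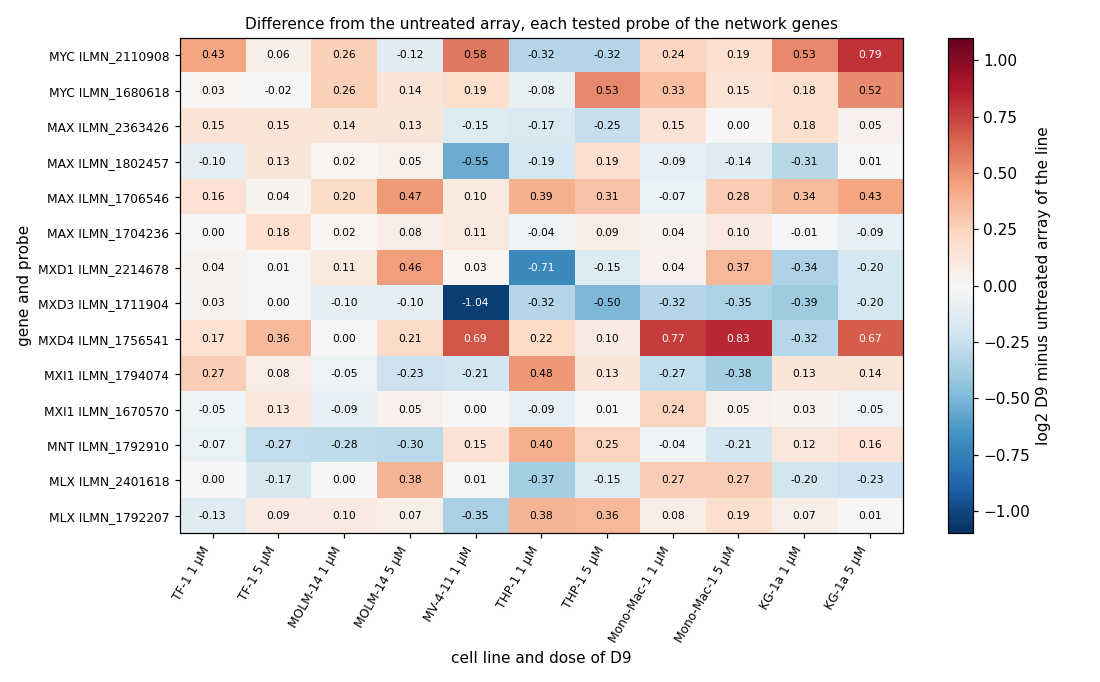
Log2 level with D9 minus the untreated array of the same line (colour and printed value) for the 14 tested probes (rows) in the 11 pairs of line and dose (columns). Each cell compares 1 array with 1 array. MXD4 is past 1.5-fold in 4 pairs, and MXD3 in MV-4-11 has the lowest value, -1.04.

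Among the repressors, MXD4 had the most pairs past 1.5-fold. Its probe, ILMN_1756541, read 10.00 for THP-1, 9.84 for MOLM-14, 9.24 for MV-4-11, 9.13 for KG-1a, 9.10 for TF-1 and 8.42 for Mono-Mac-1 before treatment. At 1 µM the differences were 0.77 for Mono-Mac-1, 0.69 for MV-4-11, 0.22 for THP-1, 0.17 for TF-1, 0.00 for MOLM-14 and -0.32 for KG-1a. At 5 µM they were 0.83 for Mono-Mac-1, 0.67 for KG-1a, 0.36 for TF-1, 0.21 for MOLM-14 and 0.10 for THP-1. The values above 1.5-fold came from both classes, and KG-1a read below its untreated level at 1 µM and above it at 5 µM. Averaged over doses, MXD4 lay above 0 in 6 of 6 lines with a mean of 0.36 ± 0.11 (SE, adjusted p = 0.131), which did not pass. The mean was 0.26 without Mono-Mac-1, 0.28 without MV-4-11 and 0.41 without KG-1a.

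MXD3, which in mouse cells is expressed in proliferating progenitors, leaned the other way. The untreated level on ILMN_1711904 was 8.19 for KG-1a, 7.95 for THP-1, 7.83 for MV-4-11, 7.79 for MOLM-14, 7.42 for Mono-Mac-1 and 6.90 for TF-1. At 1 µM the differences were -1.04 for MV-4-11, -0.39 for KG-1a, -0.32 for THP-1, -0.32 for Mono-Mac-1, -0.10 for MOLM-14 and 0.03 for TF-1. At 5 µM they were -0.50 for THP-1, -0.35 for Mono-Mac-1, -0.20 for KG-1a, -0.10 for MOLM-14 and 0.00 for TF-1. The mean was -0.36 ± 0.13 (SE, adjusted p = 0.192), below 0 in 5 of 6 lines, and -0.19 without MV-4-11. MV-4-11 also had the lowest median over 20 S phase and mitosis genes, -1.55, and TF-1 had the highest, 0.13. The part of that difference in the MXD3 values was not tested.

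MXD1, the member best known for its rise in maturing granulocytes, had no common direction. Its untreated level on ILMN_2214678 was 8.21 for Mono-Mac-1, 8.07 for MOLM-14, 7.95 for THP-1, 7.84 for MV-4-11, 7.83 for TF-1 and 7.30 for KG-1a. The 1 µM differences were 0.11 for MOLM-14, 0.04 for Mono-Mac-1, 0.04 for TF-1, 0.03 for MV-4-11, -0.34 for KG-1a and -0.71 for THP-1. At 5 µM they were 0.46 for MOLM-14, 0.37 for Mono-Mac-1, 0.01 for TF-1, -0.15 for THP-1 and -0.20 for KG-1a. All 3 sensitive lines lay at or above 0 and the resistant lines fell on either side. The mean was -0.03 ± 0.09 (SE, adjusted p = 0.927), 0.11 in sensitive and -0.16 in resistant lines, and the classes differed by 0.28 ± 0.18 (SE, adjusted p = 0.999). From 1 to 5 µM the level was higher by 0.27 ± 0.08 (SE, adjusted p = 0.224), in 4 of 5 lines, the smallest adjusted p of any network probe for the dose step.

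MXI1, a relative of MXD1 that binds SIN3, was seen above the filter mainly on ILMN_1794074. The untreated level there was 7.71 for Mono-Mac-1, 7.18 for MV-4-11, 6.89 for TF-1, 6.53 for THP-1, 6.43 for MOLM-14 and 6.01 for KG-1a. In KG-1a this is below the filter level, so that line's differences of 0.13 and 0.14 come from a dim signal. At 1 µM the other lines read 0.48 for THP-1, 0.27 for TF-1, -0.05 for MOLM-14, -0.21 for MV-4-11 and -0.27 for Mono-Mac-1, and the mean was -0.01 ± 0.09 (SE, adjusted p = 0.972). ILMN_1670570, with a mean level of 6.17, gave 0.02 ± 0.06 (SE, adjusted p = 0.900). The pair of MXI1 probes that were not tested had mean levels of 6.01 and 5.99.

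MNT, the broadly expressed repressor that pairs with MAX, had the narrowest range of untreated levels among the brightest probes. On ILMN_1792910 it read 8.41 for MV-4-11, 8.35 for Mono-Mac-1, 8.30 for MOLM-14, 8.11 for THP-1, 7.97 for TF-1 and 7.65 for KG-1a, a 1.69-fold range. Its differences ran from -0.30 in MOLM-14 at 5 µM to 0.40 in THP-1 at 1 µM. The mean was 0.01 ± 0.08 (SE, adjusted p = 0.984), with 3 lines on each side of 0.

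MLX, the MAX-like partner of MondoA, read 7.94 for MV-4-11, 7.80 for THP-1, 7.75 for Mono-Mac-1, 7.65 for KG-1a, 7.44 for TF-1 and 7.12 for MOLM-14 on ILMN_2401618. Its differences ran from -0.37 in THP-1 at 1 µM to 0.38 in MOLM-14 at 5 µM, with a mean of -0.02 ± 0.09 (SE, adjusted p = 0.954). The dimmer probe, ILMN_1792207, read 0.04 ± 0.08 (SE, adjusted p = 0.842). In THP-1 at 1 µM the probes pointed apart, at -0.37 and 0.38, and over the 17 levels their correlation was -0.278. No direction is given for MLX in that line.

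**Figure D3:**
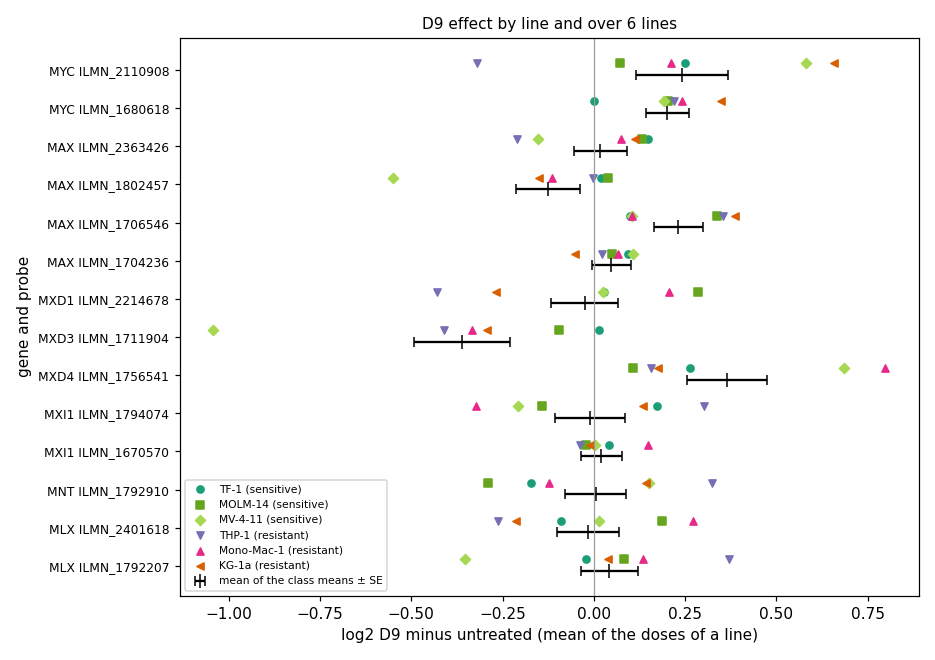
Difference between D9 and untreated on the log2 scale (horizontal axis) for the 14 tested probes (vertical axis). Coloured points are single cell lines, each the mean of its doses, and black marks are the mean of both classes ± SE from limma (n = 6 lines). MXD4, MYC ILMN_1680618 and MAX ILMN_1706546 lie at or above 0 in 6 lines.

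To ask whether D9 changed the network as a whole, each probe was tested with 1 value per line. Over the 6 lines limma called 0 of the 14 network probes at an adjusted p under 0.10, while 5.59% of all tested probes were called. At an unadjusted p under 0.05 the network had 4 of 14 probes, against 19.1% of all probes. These 4 were MAX ILMN_1706546, MYC ILMN_1680618, MXD4 and MXD3. Of the 14 probes, 3 lay on the same side of 0 in all 6 lines, against 11.5% of all probes. The median size of the difference over lines was 0.05 for network probes and 0.08 for all probes. Within the classes the network median was the larger, 0.139 against 0.0944 in resistant and 0.108 against 0.0994 in sensitive lines. The step from 1 to 5 µM gave 0.0996 against 0.0634. For the class difference in response the network median was the smaller, 0.0991 against 0.106. In single pairs the network median was larger in THP-1, Mono-Mac-1, KG-1a and MV-4-11 at each dose, and smaller in TF-1 and MOLM-14.

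Within the sensitive lines limma called 0 of 14 network probes (0.0317% of all probes), and 0 had an unadjusted p under 0.05 (12.4% of all). The smallest adjusted p belonged to MXD4 (0.35 ± 0.16 SE, adjusted p = 0.418). Within the resistant lines it called 0 of 14 (0.155% of all probes), and 3 had an unadjusted p under 0.05 (11.8% of all). MYC ILMN_1680618 was first of these (0.27 ± 0.08 SE, adjusted p = 0.290).

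The study was built to compare the response of sensitive and resistant lines. For that difference limma called 0 of 14 network probes (0% of all probes), and 0 had an unadjusted p under 0.05 (2.66% of all). On ILMN_2110908, MYC read 0.30 in sensitive and 0.18 in resistant lines, a difference of 0.12 ± 0.25 (SE, adjusted p = 0.999). The other MYC probe, ILMN_1680618, had the reverse order, 0.13 and 0.27, a difference of -0.14 ± 0.12 (SE, adjusted p = 0.999). MXD4 read 0.35 and 0.38, a difference of -0.03 ± 0.22 (SE, adjusted p = 0.999). Untreated levels of the classes gave 0 calls among the 14 by limma (0% of all probes), with 0 at an unadjusted p under 0.05 (2.11% of all). Going from 1 to 5 µM in 5 lines gave 0 calls by limma (0.546% of all probes) and 3 probes at an unadjusted p under 0.05 (11.4% of all).

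Counted per pair of arrays, with no test, 7 of 154 network values were past 1.5-fold, against 5.98% of all probe values. MXD4 gave 4 of the 7. Mono-Mac-1 had 1 of 14 probes past it at 1 µM (4.9% of all probes) and 1 at 5 µM (9.81%). MV-4-11 had 2 of 14 at 1 µM (9.45%), KG-1a had 0 at 1 µM (1.43%) and 2 at 5 µM (3.48%), and THP-1 had 1 at 1 µM (9.42%) and 0 at 5 µM (8.29%). TF-1 had 0 at either dose (2.96% and 7.05%), and so did MOLM-14 (2.23% and 6.8%). MXD3 in MV-4-11, MXD1 in THP-1 and MYC ILMN_2110908 in KG-1a each passed 1.5-fold in a single pair of unrepeated arrays. In that pair of KG-1a, at 5 µM, the other MYC probe read 0.52, which is 1.43-fold.

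Across the 6 untreated lines the MXD4 level ran opposite to that of MYC (r = -0.752) and the MAX level ran with it (r = 0.713), as a description of 6 points on separate probes. Over the 11 differences from untreated, which share untreated arrays within a line, the members' correlations with MYC ILMN_2110908 lay between -0.162 for MXI1 and 0.409 for MAX. Among 3631 genes whose differences had an SD of at least 0.3, those most like this MYC probe were PABPC1 (r = 0.947), CWC22 (r = 0.921), ZNF735 (r = 0.913), FAM234A (r = 0.911) and SLC35B4 (r = 0.908). The most opposite were CD81 (r = -0.977), GLTP (r = -0.948) and CEP85 (r = -0.948). PABPC1 codes for the cytoplasmic poly(A)-binding protein, CWC22 for a splicing factor and CD81 for a tetraspanin. Since the other MYC probe had an r of only 0.24 with this one, these likenesses describe the probe.

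Genes that the network is known to regulate did include calls. The lists were chosen with earlier results of these data known, so their counts are a description and no independent test. Of 14337 tested genes, each on its brightest probe, 7.28% were called over the 6 lines, 48.8% lay below 0 and the median was 0.00. Of 22 tested ribosome biogenesis genes that MYC induces, 17 lay below 0, 4 fell, 0 rose and the median was -0.17. Of 21 metabolic genes that it induces, 20 lay below 0, 5 fell, 0 rose and the median was -0.21. Of 15 cell cycle and other induced genes, 10 lay below 0, 4 fell, 0 rose and the median was -0.29. With the 1 µM arrays alone the calls kept were 1 of 4, 2 of 5 and 1 of 4 in these lists, and the medians were -0.11, -0.11 and -0.245. With the 5 µM arrays alone, without MV-4-11, the calls kept were 3 of 4, 4 of 5 and 3 of 4, and the medians were -0.26, -0.32 and -0.206. The 2 settings hold different lines, so these medians do not give the step between doses. Paired within 5 lines, 11 of 15 genes of the third list lay lower at 5 than at 1 µM, against 49.1% of all genes. Their median step was -0.08, and limma called 0 of them.

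Among the nucleolar genes, NOP56, a core protein of box C/D small nucleolar particles, fell by 0.65 ± 0.10 (SE, adjusted p = 0.0330). Its differences were -0.94 for MOLM-14, -0.90 for Mono-Mac-1, -0.81 for MV-4-11, -0.51 for THP-1, -0.41 for TF-1 and -0.33 for KG-1a. NOP16 fell by 0.48 ± 0.10 (SE, adjusted p = 0.0552) with THP-1 alone above 0, at 0.12. NOLC1, a nucleolar chaperone, fell by 0.28 ± 0.07 and NOP2, a ribosomal RNA methyltransferase, by 0.28 ± 0.06 (SE), each in 6 of 6 lines. The list's median was -0.37 for MOLM-14, -0.33 for Mono-Mac-1, -0.25 for TF-1 and -0.21 for MV-4-11, but 0.06 for KG-1a and 0.11 for THP-1. All 3 sensitive lines and 1 resistant line thus lay below 0. Of the 4 calls, 0 were kept without Mono-Mac-1, 1 (NOP56) without either TF-1 or KG-1a, and 2 without either MV-4-11 or THP-1.

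Among the metabolic genes, IMPDH2, which sets the pace of guanine nucleotide synthesis, read -1.71 for MOLM-14, -1.45 for THP-1, -1.28 for MV-4-11, -0.97 for TF-1, -0.85 for KG-1a and -0.63 for Mono-Mac-1. It kept its call without each line in turn. SLC7A5, a leucine transporter, fell by 0.63 ± 0.16 (SE, adjusted p = 0.0896), from -1.36 in MV-4-11 to 0.35 in THP-1. PAICS, of purine synthesis, fell by 0.51 ± 0.11 and MTHFD2, of mitochondrial folate metabolism, by 0.43 ± 0.08 (SE), both in 6 of 6 lines. The fifth, CAD, of pyrimidine synthesis, fell by 0.36 ± 0.07 (SE, adjusted p = 0.0471) and was named after its value was seen. The median of this list lay below 0 in every line, from -0.42 in Mono-Mac-1 to -0.10 in THP-1. Of the 5 calls, 1 was kept when either TF-1 or Mono-Mac-1 was left out, and 2 when MV-4-11 was.

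Among the cell cycle and other induced genes, CDCA7 fell by 0.65 ± 0.10 (SE, adjusted p = 0.0371), from -0.96 in MV-4-11 to -0.31 in MOLM-14. HSPE1 and HSPD1, the mitochondrial chaperonin genes, fell by 0.58 ± 0.14 and 0.50 ± 0.13, and EIF4A1, a translation helicase, by 0.31 ± 0.06 (SE). The list's median was lowest for MV-4-11, at -0.70, followed by Mono-Mac-1, at -0.47, and lay between -0.17 and 0.05 for the other 4 lines. Those are also the lines with the lowest S phase and mitosis medians, -1.55 and -0.96, against -0.17 to 0.13 elsewhere. In that list 20 of 20 genes lay below 0 with 0 called by limma and 7 at an unadjusted p under 0.05, against 22.8% of all genes. Its median of -0.53 became -0.18 without MV-4-11, with 16 of 20 genes below 0. CDC45 read -0.92 ± 0.27 (SE, adjusted p = 0.125) and BUB1 -0.73 ± 0.23 (SE, adjusted p = 0.143). How far a change in dividing cells enters the MYC target values was not tested. Of the 4 calls in the cell cycle list, 0 were kept when Mono-Mac-1 was left out, 1 for either MV-4-11 or TF-1, and 2 for THP-1 or MOLM-14.

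**Figure D4:**
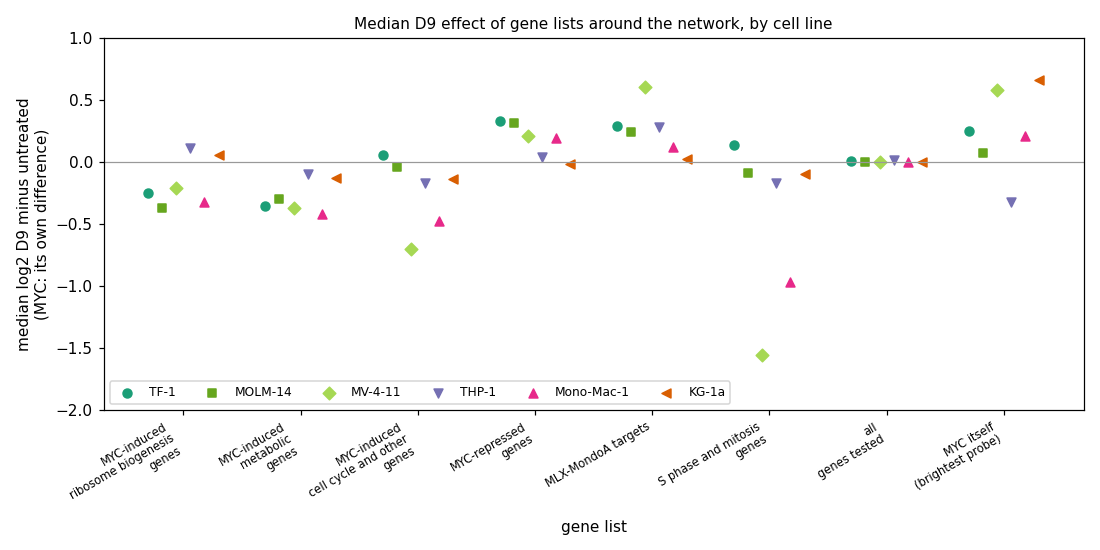
Median log2 difference between D9 and untreated (vertical axis) over the tested genes of each list (horizontal axis), by cell line, each line being the mean of its doses. The last position shows MYC itself on ILMN_2110908. The metabolic list lies below 0 in all 6 lines, whereas MYC lies above 0 in 5 of them.

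Genes that MYC is known to repress leaned upward. Of 10 tested, 9 lay above 0, 2 rose, 0 fell and the median was 0.13, with 20% called against 7.28% of all genes. With the 1 µM arrays alone 0 were called, 4 lay below 0 and the median was 0.04, and with the 5 µM arrays alone, which leave out MV-4-11, 4 were called, 0 lay below 0 and the median was 0.33. CEBPA, the factor that drives granulocyte differentiation, rose by 0.53 ± 0.11 (SE, adjusted p = 0.0590), with 1.31 in KG-1a and 0.28 to 0.53 in the other lines. HBP1, a repressor that also binds MYC, rose by 0.41 ± 0.09 (SE, adjusted p = 0.0673), between 0.00 in KG-1a and 0.70 in Mono-Mac-1. The cell cycle inhibitor gene CDKN1A, named after its value was seen as the single gene below 0, read -0.07. Neither call was left when any of MV-4-11, MOLM-14, Mono-Mac-1 or TF-1 was removed, and 1 was when THP-1 was. Over the 6 lines 7 of 9 myeloid markers lay above 0 with a median of 0.21, and 22.2% were called against 7.28% of all genes. Their median was 0.03 in the sensitive and 0.32 in the resistant lines. In TF-1 it was -0.10, with 5 of 9 below 0. The other lines overlapped between the classes, with 0.40 in MOLM-14 and 0.26 in MV-4-11. Resistant Mono-Mac-1 had 0.37, KG-1a 0.21 and THP-1 0.06. MPO rose by 0.88 ± 0.21 and CSF1R by 0.37 ± 0.08 (SE). Untreated MPO in TF-1 (6.10) and untreated CSF1R in KG-1a (6.14) lay below the filter level. The MPO call was lost when any of MV-4-11, TF-1, Mono-Mac-1 or MOLM-14 was removed, and that of CSF1R when any of THP-1, MV-4-11 or Mono-Mac-1 was. Their part in the CEBPA value was not tested.

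The MLX side of the network was read through 4 genes that MondoA and MLX induce, and all 4 were named after their values were seen. HBP1, shared with the repressed list, was the 1 that rose, and its call was lost without each line except KG-1a. TXNIP, the glucose-responsive thioredoxin inhibitor, read 0.41 (adjusted p = 0.112), ARRDC4 read 0.21 (adjusted p = 0.420) and ARRDC3 read 0.06 (adjusted p = 0.709). The median of 0.31 ran from 0.02 in KG-1a to 0.61 in MV-4-11. Of the other network factors, 0 of 4 tested were called by limma and 0 had an unadjusted p under 0.05. MYCN read 0.19 ± 0.13 (SE, adjusted p = 0.481), with 0.75 in TF-1 and 0.52 in KG-1a, and MLXIPL read 0.03 ± 0.08 (SE, adjusted p = 0.881).

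Partners of the network proteins were mixed. Of 9 tested genes of the corepressor complexes of MXD and MNT, 1 rose, 1 fell and the median was -0.02. The share called was 22.2%, against 7.28% of all genes. SAP18, a subunit of the SIN3 deacetylase complex, rose by 0.75 ± 0.09 (SE, adjusted p = 0.0196), from 0.54 in TF-1 to 1.30 in Mono-Mac-1, and kept its call without each line. SIN3A, the scaffold of that complex, fell by 0.46 ± 0.09 (SE, adjusted p = 0.0517), from -0.80 in MV-4-11 to -0.12 in MOLM-14. Its call was lost when any of Mono-Mac-1, THP-1 or TF-1 was removed.

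Of 14 tested MYC cofactors, 1 rose, 1 fell and the median was 0.03, with 14.3% called against 7.28% of all genes. CDK9, the kinase that releases paused RNA polymerase, rose by 0.32 ± 0.08 (SE, adjusted p = 0.0834), and RUVBL1, an ATPase of chromatin complexes, fell by 0.31 ± 0.07 (SE, adjusted p = 0.0742). Of 11 genes for the stability of the MYC protein, 0 rose, 1 fell and the median was -0.09. The share called was 9.09%, near the 7.28% of all genes. FBXO28, a ubiquitin ligase subunit that acts on MYC, fell by 0.31 ± 0.06 (SE, adjusted p = 0.0524), in 6 of 6 lines. The call of CDK9 was lost without each line except KG-1a, that of RUVBL1 when any single line was removed, and that of FBXO28 when any of MV-4-11, Mono-Mac-1, THP-1 or TF-1 was removed.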

How the data were processed

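RNA from 17 samples was read on Illumina HumanHT-12 V4.0 arrays. The authors deposited raw probe intensity on a linear scale, summarized in GenomeStudio (version not given in the sources used here), without detection p-values or control probes. They also deposited log2 values from GeneSpring, which could be rebuilt, to a median gap of 7.83e-07, as log2 signal minus the array's 75th percentile and the probe's median. Here raw intensities were background-corrected (limma 3.58.1 in R 4.3.3, normexp, offset 50), quantile-normalized and log2-transformed, and probes above the 40th percentile of mean level were tested. For each line the effect was the average over D9 arrays less the level without D9, a pairing by the cell line in the labels. Lines entered lmFit and eBayes with class means (4 residual degrees of freedom), and p-values were adjusted by Benjamini-Hochberg over all tested probes and called under 0.10. The fit was tested on simulated data.

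A gene is described by its brightest probe, and other probes are given where they differ. Of the array's probes, 30113 had 1 gene symbol and 17202 had none in the platform annotation. Every member is named; of each other list, up to 4 called genes with the largest change, or 2 uncalled with the smallest p. Members and lists were chosen with earlier results of these data known, and the lists follow textbook knowledge. Marker lists for erythroid, lymphoid and epithelial or stromal cells had 0 of 5, 0 of 4 and 0 of 5 tested genes called over the 6 lines by limma, with 0, 0 and 1 at an unadjusted p under 0.05. Alternatives changed the source, background correction, scaling, filter, threshold, dose, pairing and lines. Batches could not be examined, since the sources carry neither chip nor scan day, and precision is limited by how few arrays there are.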

Additional observations from a re-analysis of the deposited data

Results flagged for a closer look

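For each tested network probe, the 6 untreated levels and the 6 line differences were examined for a line far from the rest. Of 28 such sets, 2 were marked, both of MAX, and chance marks about 1 in 20. On ILMN_1802457 the difference in MV-4-11, from a single dose, was -0.55, with the next lowest line at -0.15. On ILMN_1706546 the untreated level of TF-1 was 7.16, with the next line at 6.49. The brightest MAX probe showed neither.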

How the results depend on the processing

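Over the 6 lines, the count of 0 network probes called became 1 with the authors' deposited log2 values (MXD4, adjusted p = 0.0985), 1 with no background correction (MYC ILMN_1680618, adjusted p = 0.0972), 1 with an offset of 16 (MAX ILMN_1706546, adjusted p = 0.0862) and 2 with every array counted and the line as a block (MAX ILMN_1706546 and MXD3, smallest adjusted p = 0.0436). It stayed at 0 in the other 13 alternatives, and with no pairing by line the smallest adjusted p was 1.000. No network probe was called under any alternative in the sensitive lines, the resistant lines, their difference, the dose step or the untreated levels. The causes were not tested.

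The sign of MYC, MXD3 and MXD4 held in all 17 alternatives, from 0.09 to 0.37, -0.46 to -0.19 and 0.25 to 0.43. Members near 0 changed sign. Leaving out 1 line at a time moved MAX from -0.013 (KG-1a) to 0.068 (THP-1), MXD1 from -0.12 (Mono-Mac-1) to 0.041 (THP-1), MXI1 from -0.077 (THP-1) to 0.080 (Mono-Mac-1), MNT from -0.058 (MV-4-11) to 0.065 (Mono-Mac-1) and MLX from -0.10 (Mono-Mac-1) to 0.033 (THP-1). MAX read -0.13 on ILMN_1802457, and MXD1 0.12 with 5 µM alone. MXI1 read 0.0060 with an offset of 16, 0.057 with 1 µM alone and 0.021 on ILMN_1670570. MNT read -0.011 with the authors' values, -0.022 with median scaling, -0.11 with 5 µM alone and -0.0063 with every array counted. MLX read 0.032 with 5 µM alone and 0.042 on ILMN_1792207.

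With no pairing by line, 0 genes of any list around the network were called. Calls over all alternatives ran from 0 to 8 for ribosome biogenesis, 0 to 9 for metabolic, 0 to 7 for cell cycle and other, and 0 to 4 for repressed genes. Signals near the filter level bound what can be said of MXI1 and of the dimmer MAX probes.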

Other observations

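The dose step over 5 lines was also read for the genes that MYC regulates. From 1 to 5 µM, 21 of 22 MYC-induced ribosome biogenesis genes lay below 0 with a median of -0.14, but limma called 0, with 9 at an unadjusted p under 0.05 (of all genes, 0.795% were called and 14.2% had such a p). Of the 21 metabolic genes 19 lay below 0, and IMPDH2 fell by 0.54 ± 0.09 (SE, adjusted p = 0.0399). All 10 MYC-repressed genes lay above 0 with a median of 0.24, and GADD45A, a growth arrest gene, rose by 0.44 ± 0.07 (SE, adjusted p = 0.0403). Neither IMPDH2 nor GADD45A kept its step call without TF-1, KG-1a or MOLM-14, where adjusted p-values ran from 0.115 to 0.181. With an offset of 16 both were lost too (IMPDH2 adjusted p = 0.135, GADD45A adjusted p = 0.125), and with median scaling GADD45A was (adjusted p = 0.131).

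The difference between D9 and untreated lay lower in the sensitive than in the resistant lines for 18 of 22 ribosome biogenesis genes, with a median of -0.26 between the classes, against 51.7% of all genes. By limma 0 of the 22 were called (0% of all genes), and 2 had an unadjusted p under 0.05 (3.18% of all). Of 21 metabolic genes 16 lay lower, with a median of -0.09. Of 15 cell cycle and other induced genes 8 did, with a median of -0.08. Neither of these lists had a gene called or at an unadjusted p under 0.05. The ribosome biogenesis median of resistant Mono-Mac-1, -0.33, lay below those of sensitive TF-1 (-0.25) and MV-4-11 (-0.21). Genes of a list share the same lines, so these counts do not replicate the class contrast.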
